A study of Mus musculus with 6 samples.

Results

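The genes described here are 44 factors, regulators and products of NF-kB signalling in macrophages: Rel transcription factors, their inhibitors, the kinases and adaptors between Toll-like receptors and NF-kB, co-stimulatory molecules and inflammatory cytokines. They were followed through every probe set whose only gene symbol in the array annotation was one of the 44 names. Such probe sets existed for 39 of them, out of 18193 genes with a single-symbol probe set, and numbered 74 in all. Nfkb1, Traf3, Irak4, Chuk and Ticam2 had none in the annotation table used and were not analysed here. The cells were resident macrophages of the peritoneal cavity, sorted as CD11b-high and MHCII-low/negative from lavage fluid. The Gata6-KO group held 3 samples from knockout mice of 7 weeks with a conditional, floxed deletion of Gata6, a gene for a zinc finger transcription factor. The Gata6-WT group held 3 samples from wild type mice of the same age. Each sample was a pool from 2 to 3 mice measured on 1 array, and the labels number them as biological replicates 1 to 3. The sources used here do not give the Cre line, the strain, the deleted part of the gene or any stimulation of the cells. Single arrays are called KO 1 to KO 3 and WT 1 to WT 3 after their replicate numbers.

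NF-kB factors are dimers of Rel proteins that wait in the cytoplasm bound to inhibitors of the I-kappa-B family. A signal from a Toll-like receptor runs through the adaptors MyD88 or TRIF, IRAK kinases and TRAF6 to the I-kappa-B kinase complex, which marks the inhibitor for breakdown and lets the dimer enter the nucleus. Among the genes it then switches on in macrophages are cytokines, co-stimulatory molecules and its own inhibitors.

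Values are probe set signals in linear intensity, listed in the order of replicates 1, 2 and 3, with mean ± SD over n = 3 arrays where a mean is given. A log2 difference is Gata6-KO minus Gata6-WT on the log2(signal + 16) scale, and folds are read from it. An adjusted p under 0.05 in the limma fit over all probe sets is called passing. The median signal of an array lay between 79.7 and 88.5. Gata6 itself had 3 probe sets. One had 6433, 5405 and 7279 in Gata6-WT and 4452, 3040.2 and 2998 in Gata6-KO (log2 -0.88), another 337, 449 and 483 against 184, 173 and 183 (log2 -1.15), and both fell. The third did not pass, at 1614, 1436 and 2276 against 2161, 1363 and 1751 (log2 -0.01); their position relative to the deleted part is not known here. Both replicates 1 had the expression of male mice, with Xist at 102 and 113, while the other 4 arrays had Xist between 11158 and 13749, with the Y-linked gene Eif2s3y the other way round. For those of the 44 genes that passed, differences are therefore also given for replicates 2 and 3 (female-type, 2 arrays against 2) and replicate 1 (male-type, 1 against 1, no test). Macrophage markers were present in every array, though 4 of 8 fell and 1 rose, where 7.46% of all genes fell and 5.61% rose. Adgre1, which encodes F4/80, fell from a wild type mean of 43123 ± 3980.0 to a knockout mean of 12149 ± 3204. Of 6 markers fixed for monocytes and small peritoneal macrophages, 4 were measured; Ccr2, Chil3 and Plac8 rose and Fn1 did not pass (log2 -0.22). Ccr2 rose 23.9-fold, Chil3 6.21-fold and Plac8 1.98-fold. The sum of the 4 markers overlapped between the groups (61874 to 83727 in Gata6-WT and 58301 to 81042 in Gata6-KO). Fn1 alone, at 54572 to 83208 per array, made up most of this sum, so the overlap cannot show how the other markers moved. Some listed markers of T cells (Cd3d, Cd3e), B cells (Cd79a, Cd79b), eosinophils (Epx), neutrophils (S100a9) and mesothelium (Msln, Upk3b) reached at most 102 in any array. Others on these lists read higher. S100a8, listed with S100a9, had 1002, 847 and 1484 in Gata6-WT and 664, 293 and 507 in Gata6-KO, and fell. The B cell marker Blnk had 373, 867 and 411 against 253, 320 and 241. The T cell marker Cd8a had 150, 110 and 121 against 84.2, 85.2 and 58.3, and Pax5 of the B cell list reached 136. Blnk, Cd8a and Pax5 did not pass. Of the mast cell markers, Cpa3 had 250.3, 284 and 305 against 125, 145 and 206 without overlap and did not pass (adjusted p = 0.051), and the other 4 were below the filter. In bulk RNA of a sorted population, fewer cells of a type and less RNA per cell cannot be told apart.

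Between Gata6-KO and wild type macrophages, Map3k8, Ikbke, Tank and Cd40 rose and Socs3, Irak1 and Ikbkb fell. Of the 39 genes, 34 had a probe set above the filter on low signals, and 7 of the 34 passed (20.6%), against 13.1% of all 12511 genes tested. The 4 rises stand against a background of 5.61% and the 3 falls against 7.46%. The median log2 difference of the 34 was 0.21 and that of all genes tested -0.04. The groups did not overlap in 17 of the 34 genes, 10 higher and 7 lower in Gata6-KO, where 34.4% of all genes did not overlap. Counted by probe set, 14 of 63 passed (22.2%, against 10.8% of all 27022 probe sets), 9 of them upward (background 5.12%) and 5 downward (background 5.67%), and Cd80 was the 1 gene with passing probe sets that did not pass at its probe set of highest mean. The count of genes was 4 without KO 2 and 4 without WT 2. The count of probe sets was 6 without KO 2, 6 without KO 3 and 9 without WT 3.

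**Figure D1:**
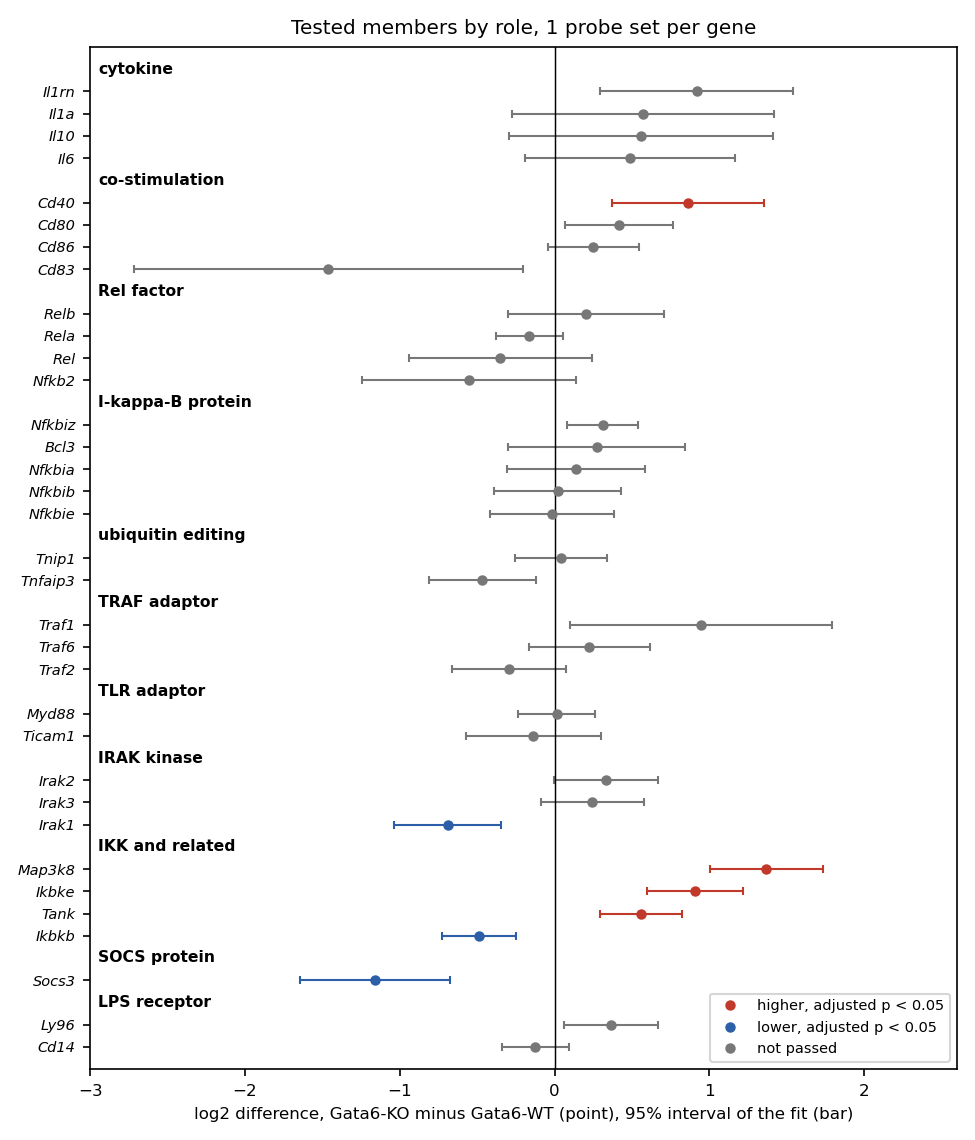
Each point is the log2 difference (Gata6-KO minus Gata6-WT) of 1 of the 34 tested genes at its probe set of highest mean signal, and each bar its 95% interval from the fit, grouped by role. The coloured points are the 4 genes that rose and the 3 that fell; the widest bar is that of Cd83, from -2.72 to -0.21.

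Of the 44 genes, all 4 tested ones grouped as kinases around I-kappa-B and their adaptor passed, 3 upward and 1 downward (background 13.1%, 5.61% and 7.46%). This holds for that grouping only. On the list of other pathway genes Tbk1 passed, as given below, while related genes did not in the limma fit. These were Ikbkg (log2 -0.15, adjusted p = 0.57), Map3k14 (log2 0.23, adjusted p = 0.57) and Map3k7 (log2 0.65, adjusted p = 0.14). Map3k8, the kinase TPL2 that links NF-kB1 p105 to the ERK pathway, had signals of 477, 380.2 and 451 in Gata6-WT and 941, 1234 and 1296 in Gata6-KO. Every Gata6-KO array lay above every Gata6-WT array, and Map3k8 rose 2.58-fold (log2 1.37 ± 0.16 SE, adjusted p = 7.7e-04; 1.57 in replicates 2 and 3 and 0.96 in replicate 1). Ikbke encodes IKK-epsilon, a kinase best known for activating interferon regulatory factors. Its signals were 923, 1101 and 1226 in Gata6-WT and 1832, 2139 and 2146 in Gata6-KO, again without overlap. The rise was 1.88-fold (log2 0.91 ± 0.14 SE, adjusted p = 0.0031; 0.87 in replicates 2 and 3 and 0.98 in replicate 1). Map3k8 and Ikbke passed in every one of 18 variations of the fit tried for them, with adjusted p up to 0.011 and 0.030.

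Tank is an adaptor that binds TRAF proteins and the kinases TBK1 and IKK-epsilon. At its probe set of higher signal it had 1918, 1859 and 2241 in Gata6-WT and 2786, 2911 and 3176 in Gata6-KO, groups that did not overlap. It rose 1.47-fold (log2 0.56 ± 0.12 SE, adjusted p = 0.015), with 0.57 in replicates 2 and 3 and 0.54 in replicate 1. The other Tank probe set gave a larger difference at a much lower signal, with 63.6, 71.0 and 22.3 against 153, 199 and 119 (log2 1.40 ± 0.37 SE, adjusted p = 0.041), and the mean over both was 0.98 (adjusted p = 0.0053). The first call was lost without KO 2 (adjusted p = 0.052), KO 3 (0.058) or WT 2 (0.067), and the second in 5 of the 6 fits that left out 1 array, all but the fit without WT 2. From the list of other pathway genes, Tbk1, the kinase closest to IKK-epsilon, had 1916, 1789.9 and 1517 in Gata6-WT and 2568, 2570.2 and 2452 in Gata6-KO (log2 0.54 ± 0.12 SE, adjusted p = 0.019). Azi2, which encodes a further adaptor of TBK1 and IKK-epsilon, had 1710.4, 1776 and 1659 against 2456, 2378 and 2414 (log2 0.49 ± 0.10 SE, adjusted p = 0.015). Tbk1 and Azi2 were picked by the size of their change among the other pathway genes that passed, so that their direction beside Ikbke and Tank is a description of these genes only. The Tbk1 call was lost without KO 1 (0.064), KO 2 (0.070) or WT 2 (0.055). That of Azi2 was lost without KO 1 (0.055) or KO 2 (0.052), and over the mean of its probe sets the log2 difference was 0.27 (adjusted p = 0.26).

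**Figure D2:**
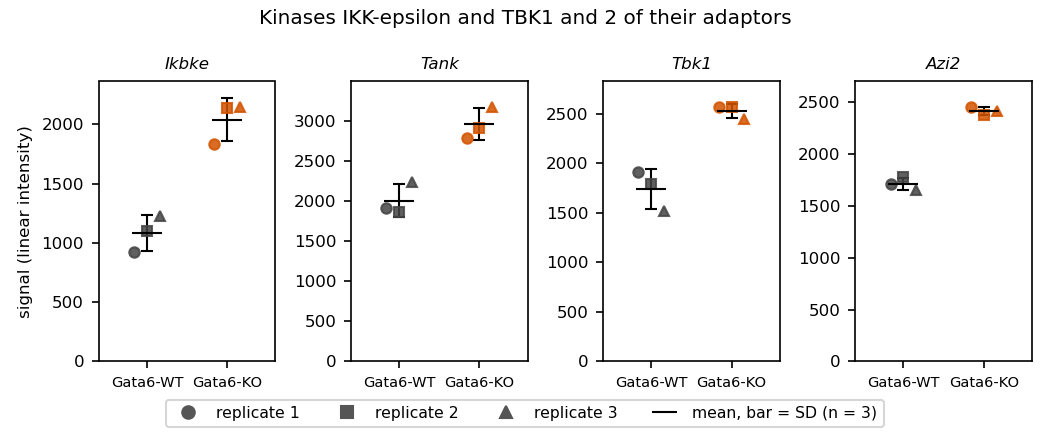
Signal (linear intensity) of Ikbke, Tank, Tbk1 and Azi2 in each array, 1 symbol per replicate, with the mean and SD of 3 arrays as a line and bar. The Gata6-KO values lie above the Gata6-WT values in all 4 panels; for Ikbke the lowest Gata6-KO signal was 1832 and the highest Gata6-WT signal 1226.

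Ikbkb encodes IKK-beta, the kinase that phosphorylates I-kappa-B in the canonical route. Its probe set of highest signal had 3760.2, 3771 and 4296 in Gata6-WT and 2648, 2843 and 2925 in Gata6-KO, with all Gata6-KO arrays below. There it fell 1.40-fold (log2 -0.49 ± 0.11 SE, adjusted p = 0.019; -0.48 in replicates 2 and 3 and -0.50 in replicate 1). The other 3 tested probe sets of Ikbkb did not pass, at log2 -0.64, -0.0043 and 0.35, and the mean of all 4 was -0.20 (adjusted p = 0.42). The call was also lost without KO 1 (0.073), KO 2 (0.061) or WT 2 (0.051).

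NF-kB, STAT and AP-1 factors can act through short motifs near the starts of their target genes, so the promoters of the 44 genes were read from RefSeq windows (GRCm38.p6, 250 bases before to 50 after a start). Windows existed for 31 of the 44 genes, 42 windows in all; Cd40, Map3k8 and Ikbkb had none. Both strands were searched for the kB consensus, for the STAT motif TTCNNNGAA, for GATAA, for the AP-1 motif TGACTCA, for the interferon-stimulated response element (ISRE) and for the cyclic AMP response motif TGACGTCA, none of which contains another. The kB consensus lay in 13 of the 42 windows (10 genes) and in 4.51% of 32851 windows of all genes. TGACTCA lay in 7 of the 42 and in 5.2% of all, GATAA in 5 and in 25.4%, the STAT motif in 5 and in 8.3%, ISRE in 2 and in 3.44%, and TGACGTCA in 0 and in 1.79%. Of the 7 genes that passed, 4 had windows: 2 of the 4 Tank windows, which overlap, held a kB match and TGACTCA, that of Socs3 a STAT match, and those of Ikbke and Irak1 none of the 6 motifs. A match is a description of the letters and shows no binding. A stretch of 1 of these Tank windows, chr2:61592997-61593101, plus strand, is shown to its first transcribed bases, with the kB match and TGACTCA in capitals.
Tank: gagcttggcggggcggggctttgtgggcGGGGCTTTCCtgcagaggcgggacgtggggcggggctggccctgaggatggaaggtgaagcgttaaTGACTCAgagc

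Of 4 genes for co-stimulatory and activation molecules, which macrophages display to T cells, 1 passed at its probe set of highest mean (25%, against 13.1% of all genes), namely Cd40. Cd40, the receptor for CD40 ligand, had signals of 898, 1565 and 824 in Gata6-WT and 1934, 2081 and 1763 in Gata6-KO. The groups did not overlap, but WT 2 lay close to the Gata6-KO arrays. Cd40 rose 1.82-fold (log2 0.86 ± 0.22 SE, adjusted p = 0.034; 0.74 in replicates 2 and 3 and 1.09 in replicate 1). Its other 2 probe sets also passed, at log2 0.86 and 0.99. At all 3 the call was lost when any of the 5 arrays other than WT 2 was left out, with adjusted p up to 0.12 and log2 differences of 0.68 to 1.06 in those fits.

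Cd80, a ligand of CD28 and CTLA4, had 3 tested probe sets. The one with the highest mean had 411, 460.2 and 354 in Gata6-WT and 597, 551 and 499.7 in Gata6-KO and did not pass (log2 0.42 ± 0.16 SE, adjusted p = 0.13). Another had 367, 253 and 219.8 against 473, 682 and 709 and rose 2.17-fold (log2 1.12 ± 0.23 SE, adjusted p = 0.013), with a smaller difference of 0.35 in replicate 1, and the last had 231, 206 and 158 against 317, 378 and 545 (log2 0.98 ± 0.23 SE, adjusted p = 0.026). At all 3 the Gata6-KO arrays lay above the Gata6-WT arrays, and the mean over them passed (log2 0.84, adjusted p = 0.014). Without KO 2 or KO 3, neither of the passing probe sets passed (adjusted p from 0.054 to 0.088), and the last was also lost without WT 2 (0.067) or WT 3 (0.072).

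For Cd86, which shares these receptors, 1 probe set had 2531, 2153 and 2080.4 against 2725, 3469 and 3163 without overlap and did not pass (log2 0.46 ± 0.13 SE, adjusted p = 0.051), while its probe set of highest mean overlapped between groups (log2 0.25, adjusted p = 0.28). The first of these passed in 8 of 17 variations, with median scaling (0.043) and without KO 1 (0.047) or WT 1 (0.041) among them. Cd83, a marker of mature dendritic cells, had low signals of 57.0, 100.3 and 128 in Gata6-WT and 9.43, 8.71 and 77.6 in Gata6-KO. KO 3 lay within the wild type range, and Cd83 did not pass (log2 -1.46 ± 0.56 SE, adjusted p = 0.14). Without KO 3 Cd83 passed as lower, with KO 1 and KO 2 far below the filter signal of 47.5. Dendritic cell markers summed to 575 to 1355 per array in Gata6-WT and 313 to 587 in Gata6-KO. Of the 6 listed markers 3 were tested and 1 fell (Cd209a), where 7.46% of all genes fell. Zbtb46 had 155, 121 and 128 in Gata6-WT and 69.6, 194 and 292 in Gata6-KO and did not pass in the limma fit (log2 0.24, adjusted p = 0.78). Itgae did not pass either (log2 -0.86, adjusted p = 0.15). Flt3 and Ccr7, below the filter, did not exceed 58.0 in any array. B cell markers, 6 of 7 measured, summed to 581.2 to 1184 in Gata6-WT and 534 to 580.8 in Gata6-KO. These sums just did not overlap (exact two-sided permutation p = 0.1, the smallest possible). In the limma fit 0 of the 3 tested passed, and Blnk alone had an unadjusted p under 0.05, with a log2 difference of -0.89. The dendritic cell sums overlapped between the groups. Of the monocyte markers, as given above, Ccr2, Chil3 and Plac8 rose and Fn1 did not pass, and their sum is mostly Fn1. The part of such cells in the Cd40 and Cd80 results was not tested.

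**Figure D3:**
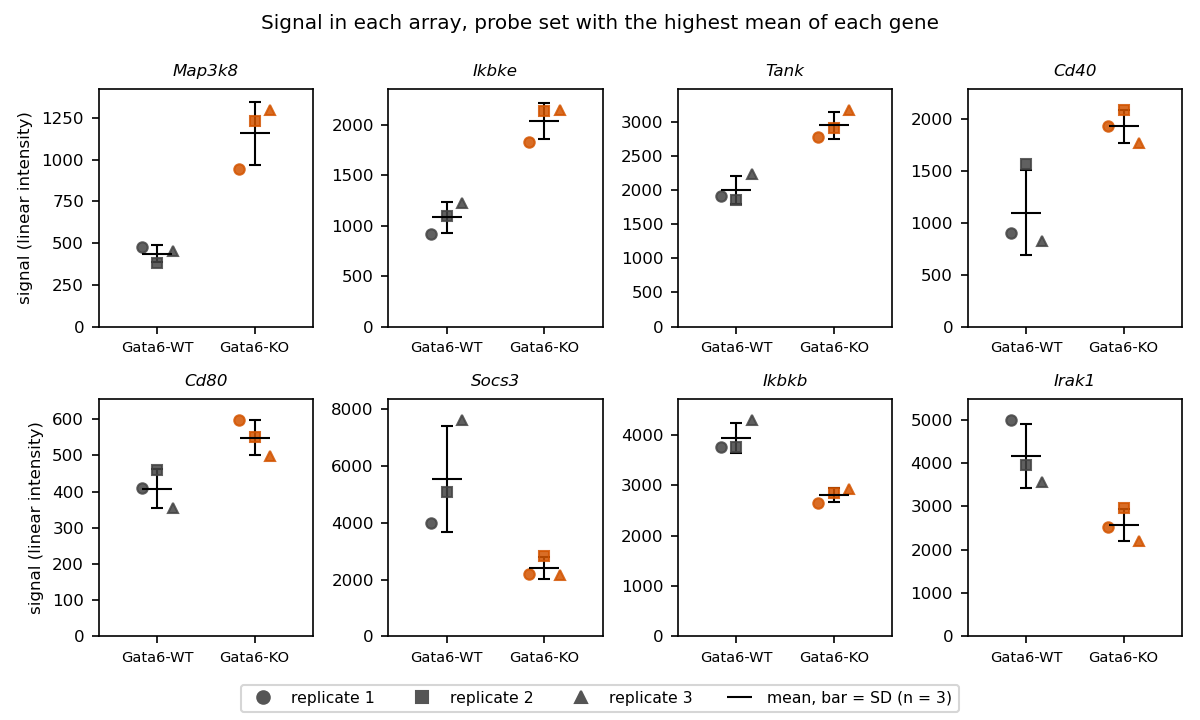
Signal (linear intensity) in each array for Cd80 and the 7 genes that passed, at the probe set of highest mean, 1 symbol per replicate, with the mean and SD of 3 arrays as a line and bar. The groups do not overlap in any panel; for Cd40 the highest Gata6-WT signal was 1565 and the lowest Gata6-KO signal 1763.

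Between the receptor and the kinases, Irak1 was the 1 gene that passed. Irak1 encodes a kinase recruited by MyD88. Its probe set of highest signal had 4989.7, 3952 and 3568 in Gata6-WT and 2533, 2969.9 and 2212 in Gata6-KO, all Gata6-KO arrays being lower. It fell 1.61-fold there (log2 -0.69 ± 0.15 SE, adjusted p = 0.020), with -0.55 in replicates 2 and 3 and -0.97 in replicate 1. However, the _x_at suffix marks probes that can also match other transcripts. The other 3 Irak1 probe sets did not pass, at log2 -0.47 (adjusted p = 0.053), -0.27 and -0.06; the last, 2208, 2104 and 1809 against 2205, 1785 and 1891, overlapped. The mean over the 4 was -0.37 (adjusted p = 0.041). The call at the highest probe set was lost without KO 1 (0.062), KO 3 (0.073), WT 1 (0.053) or WT 2 (0.056). Irak2, a related kinase, had 475, 522 and 395 against 592, 568 and 596 without overlap and did not pass (log2 0.33, adjusted p = 0.20). Irak3, or IRAK-M, which restrains the pathway, was at log2 0.24 and 0.54 over its 2 probe sets, and neither passed.

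None of the 4 tested genes for receptor parts and Toll-like receptor adaptors passed. With so few genes this is near the share of 13.1% over all genes. Cd14, which hands lipopolysaccharide to the receptor, had 31119, 27113 and 29726 in Gata6-WT and 27096, 26794 and 26745 in Gata6-KO. The Gata6-KO arrays were just below, and the difference did not pass (log2 -0.12, 95% interval -0.34 to 0.10). Ly96, which encodes the TLR4 partner MD-2, had 2908, 3375 and 3887 against 4092, 4895 and 4084, just above, at log2 0.37 (0.06 to 0.67, adjusted p = 0.12). For Myd88, the main adaptor, the signals were 2359.7, 2711 and 2773 against 2555, 2548 and 2804. These overlapped, and the 95% interval of the log2 difference was -0.24 to 0.26. Ticam1, which encodes TRIF, overlapped as well, at log2 -0.14 (-0.57 to 0.30). Among TRAF genes Traf2 had 378, 400.1 and 405 against 351, 344 and 267 (log2 -0.29, adjusted p = 0.31) and Traf1, an NF-kB-induced member, 22.3, 44.3 and 47.4 against 116, 92.7 and 57.1 (log2 0.95, adjusted p = 0.15). Neither overlapped between groups and neither passed. Traf6, the ubiquitin ligase downstream of the IRAK kinases, had 284, 387 and 348 against 395, 353 and 448 at its highest probe set, and was at log2 -0.04 to 0.23 over 4 tested probe sets, with 0 passing in the limma fit and 0 at an unadjusted p under 0.05.

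No Rel factor or I-kappa-B gene passed: 0 of 4 and 0 of 5 genes in the limma fit, with 0 and 1 of them (Nfkbiz) at an unadjusted p under 0.05. Of all genes tested 13.1% passed, and with so few genes a count of 0 lies near that share. Rela, the p65 subunit, had 3404, 3307 and 3405 in Gata6-WT and 3045, 2953 and 3036 in Gata6-KO. The arrays of a group differed by little and the groups did not overlap, but the difference was small (log2 -0.16, 95% interval -0.38 to 0.05, adjusted p = 0.34). Relb, Rel and Nfkb2 had low signals, all under 463, and overlapped, at log2 0.20, -0.35 and -0.55. For Nfkb2, the precursor of p52, the second probe set gave the other direction, 73.1, 121 and 328 against 132, 192 and 192 (log2 0.21, adjusted p = 0.82). Nfkbia encodes I-kappa-B-alpha, the inhibitor that NF-kB itself induces. Its probe set of highest signal had 14211, 15426 and 22303 in Gata6-WT and 14490.1, 20438 and 22018 in Gata6-KO. Replicate 1 was low and replicate 3 high in both genotypes, and the 5 probe sets gave log2 differences of 0.10 to 0.33. Nfkbib and Nfkbie, for the beta and epsilon inhibitors, were at 0.02 and -0.02, with the second Nfkbie probe set at 0.18 (306, 267 and 327 against 338, 351 and 336), and Bcl3, a nuclear partner of p50 and p52, at 0.27.

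Nfkbiz, a nuclear I-kappa-B that helps induce secondary genes such as Il6, had 2783, 2506 and 2814 in Gata6-WT and 3313, 3291 and 3442 in Gata6-KO. The groups did not overlap at this and at 1 other of its 3 probe sets, but none passed (log2 0.31, adjusted p = 0.091, then 0.61 and 0.11, then 0.07 and 0.95). Tnfaip3 encodes A20, which removes and edits ubiquitin chains to end the signal. It had 546, 494 and 423 in Gata6-WT and 354, 343 and 343 in Gata6-KO, lower in each Gata6-KO array, with adjusted p = 0.089 (log2 -0.47, 95% interval -0.81 to -0.12). Tnip1, its partner, overlapped at log2 0.04. These inhibitors are textbook NF-kB targets, so the stretches before the starts of Nfkbia (chr12:55492648-55492747, minus strand) and Tnfaip3 (chr10:19015411-19015550, minus strand, 1 of its 2 windows) are shown, with matches to the kB consensus on either strand in capitals.
Nfkbia: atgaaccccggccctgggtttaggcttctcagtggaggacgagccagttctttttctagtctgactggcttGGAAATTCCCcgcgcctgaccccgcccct
Tnfaip3: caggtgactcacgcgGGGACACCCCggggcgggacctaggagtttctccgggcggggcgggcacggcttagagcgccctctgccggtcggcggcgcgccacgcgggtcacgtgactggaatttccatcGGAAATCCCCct
The Nfkbia match lies 29 bases before the start, and those of Tnfaip3 125 and 12 bases before. Neither gene, with its kB match, passed between the genotypes, nor did Il6, Rel, Nfkb2, Nfkbie, Bcl3 or Tnip1, whose windows also held one, whereas Tank passed.

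Socs3, an inhibitor of cytokine receptor signalling through STAT3, had the largest fall among the genes that passed. The probe set of highest signal had 3979, 5081 and 7617 in Gata6-WT and 2201, 2847 and 2178 in Gata6-KO. No Gata6-KO array reached the lowest Gata6-WT array, and the wild type values were spread widely, with WT 3 highest. Socs3 fell 2.23-fold (log2 -1.16 ± 0.22 SE, adjusted p = 0.0087; -1.32 in replicates 2 and 3 and -0.85 in replicate 1). The other 2 probe sets passed too, 3504, 3381 and 6604 against 1922, 2247 and 1839 (log2 -1.09 ± 0.23 SE, adjusted p = 0.016) and 894, 1503 and 3274 against 487, 441 and 434 (log2 -1.82 ± 0.37 SE, adjusted p = 0.013). The first and second carry the _x_at suffix too, and the last does not. Without WT 3 the log2 differences were -0.91, -0.78 and -1.32, with adjusted p of 0.011, 0.0067 and 0.0075. The second probe set was lost without KO 1 (0.051), without KO 3 (0.060) and with replicates 2 and 3 alone. In a fit without a variance trend all 3 calls were lost, with adjusted p of 0.0565 at the first probe set and 0.0662 at the last. Socs1 lay below the filter, at 9.40 to 44.9. Since STAT3 is known to induce Socs3, the stretch of its promoter window with the STAT match is shown: chr11:117969467-117969566, minus strand, which ends 101 bases before the start given in the table. The match is in capitals, and RefSeq places the outermost start of the gene further upstream.
Socs3: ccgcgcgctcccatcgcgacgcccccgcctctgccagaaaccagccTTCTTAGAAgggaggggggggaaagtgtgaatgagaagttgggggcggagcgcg

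WT 3, which had the highest Socs3 signal, was also high in early response genes, which are induced within minutes by handling as well as by cytokines. They belong to a list of 9 genes fixed for handling stress, which also holds the heat shock genes Hspa1a and Hspa1b. All 9 were tested, 3 fell in Gata6-KO (Egr1, Ier2 and Junb) and 0 rose, where 7.46% of all genes fell and 5.61% rose. Egr1 had 3121, 4272 and 11573 in Gata6-WT and 1295, 621 and 1883 in Gata6-KO, and Ier2 6649.8, 7410.3 and 11561 against 4268, 3608 and 4276. Fos, at 2851, 3005 and 26266 against 2291, 2640.3 and 4999.7, and Dusp1, at 6155, 5976 and 27558 against 5351, 10378 and 14255, did not pass, and WT 3 exceeded every other array in both. The 9 genes summed to 24415 to 87550 per array in Gata6-WT and 18251 to 33947 in Gata6-KO (exact two-sided permutation p = 0.7 over 3 against 3 arrays, where 0.1 is the smallest possible). Without WT 3 the log2 ratio of the mean sums turned from -0.77 to 0.11. The heat shock genes enter these sums, and sums without them were not tested. Hspa1b had 1441, 1642 and 3002 in Gata6-WT and 939, 7196 and 3552 in Gata6-KO, and did not pass. As given above, all 3 Socs3 probe sets passed without WT 3. However, Egr1, Ier2 and Junb were also higher in WT 1 and WT 2 than in every Gata6-KO array. The fit without WT 3 therefore cannot show whether handling had a part in the Socs3 fall, which was not tested.

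**Figure D4:**
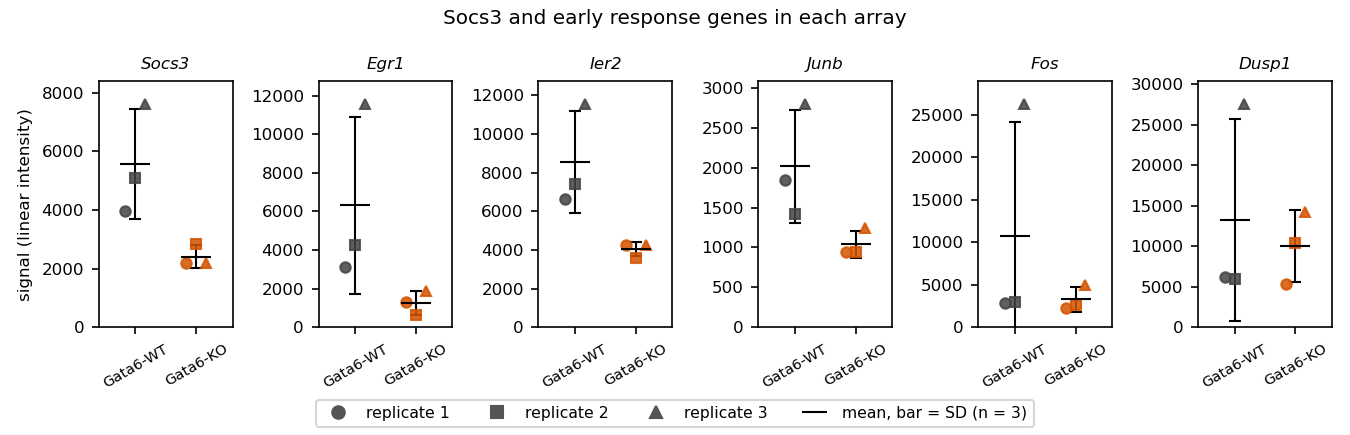
Signal (linear intensity) in each array for Socs3 and 5 early response genes, 1 symbol per replicate, with the mean and SD of 3 arrays as a line and bar. The triangle of WT 3 is the highest point in each panel; for Socs3, Egr1, Ier2 and Junb the other Gata6-WT arrays also lie above the Gata6-KO arrays.

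The inflammatory cytokine genes had low signals in both genotypes, and in the limma fit 0 of the 4 tested passed (1, Il1rn, at an unadjusted p under 0.05). For so few genes a count of 0 is near the 13.1% of all genes that passed. Tnf had 136, 11.4 and 77.1 in Gata6-WT and 13.1, 35.5 and 39.9 in Gata6-KO, below the filter. The interleukin 12 subunit genes Il12a and Il12b and the nitric oxide synthase gene Nos2 were below it too, with no signal over 94.7 in any array. Il6 averaged 267 ± 89.8 in Gata6-WT and 384 ± 144 in Gata6-KO. Il1a averaged 79.8 ± 22.7 in Gata6-WT and 135 ± 71.3 in Gata6-KO, and Il10, an anti-inflammatory cytokine, 40.1 ± 13.3 in Gata6-WT and 67.5 ± 25.3 in Gata6-KO. Each overlapped between the groups, with log2 differences of 0.49, 0.57 and 0.56 and 95% intervals reaching from -0.29 to 1.42. Il1rn, the natural antagonist of the interleukin 1 receptor, had 124, 108 and 84.0 in Gata6-WT and 141, 259 and 255 in Gata6-KO at its probe set of highest mean. There the groups did not overlap, but the difference did not pass (log2 0.92 ± 0.28 SE, adjusted p = 0.067; 1.29 in replicates 2 and 3 and 0.17 in replicate 1), and its other probe sets were at 0.40 and 0.19. Il1rn passed without KO 1 (log2 1.18, adjusted p = 0.026) but not without KO 2 (adjusted p = 0.199) or KO 3 (0.205). Over the mean of its probe sets the log2 difference was 0.50 (adjusted p = 0.42). With these intervals, changes in the cytokine genes were not detectable here, which does not show that they are absent.

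Where a gene had several probe sets, they mostly gave the same direction. Of 15 genes with more than 1 tested probe set, 4 had log2 differences on both sides of 0, namely Nfkb2, Nfkbie, Traf6 and Ikbkb, and 0 had passing probe sets in opposite directions. Every tested probe set passed for Cd40, Tank and Socs3, as did the single ones of Map3k8 and Ikbke.

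**Figure D5:**
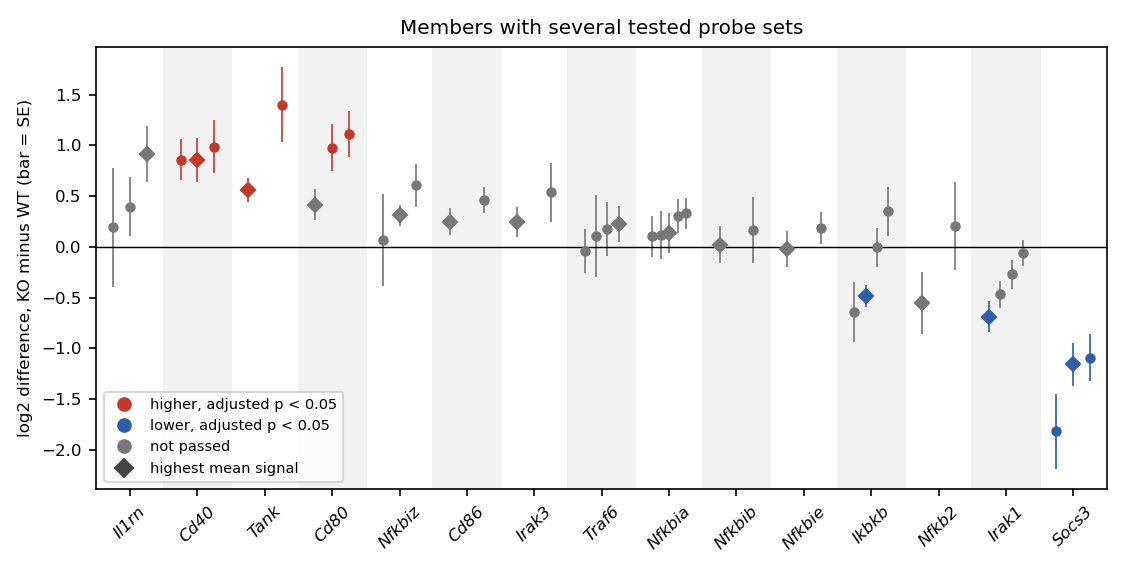
Log2 difference (Gata6-KO minus Gata6-WT, bar = SE) at each tested probe set of the 15 genes with more than 1, ordered by the value at the probe set of highest mean (diamond). All probe sets of Cd40, Tank and Socs3 are coloured as passing, while Cd80 had 2 of 3, Irak1 1 of 4 and Ikbkb 1 of 4.

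Beyond the 44 genes, 43 of 50 further regulators of the pathway were tested; 4 rose, 2 fell and 37 did not pass (14% passing, near the 13.1% of all genes), with a median log2 difference of 0.005. Zfp36 and Birc2 fell and Tbk1, Azi2, Otulin and Bcl10 rose. Zfp36 encodes tristetraprolin, which destabilises cytokine mRNAs, and went from a wild type mean of 6422 ± 5405 to a knockout mean of 1464 ± 214 (log2 -1.81 ± 0.44 SE, adjusted p = 0.030). Its wild type arrays read 2864, 3759 and 12642, with WT 3 again highest, and without that array the log2 difference was -1.17 (adjusted p = 0.0039). The call was lost when any of the 3 Gata6-KO arrays was left out (adjusted p from 0.067 to 0.087). Birc2, the ubiquitin ligase cIAP1 of TNF receptor complexes, had 1107, 1261 and 1029 against 726, 656 and 737 (log2 -0.67 ± 0.13 SE, adjusted p = 0.011), and its call was lost without WT 2 (0.054). The count of 6 was 1 without KO 1 or KO 2, and 3 without WT 2.

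Of 40 genes that inflammatory stimuli are known to induce, 30 were tested; 2 rose, 7 fell and 21 did not pass (30% passing, against 13.1% of all genes), with a median log2 difference of -0.32. The list was chosen with earlier results of these arrays known, and lists picked in this way give no independent evidence of a direction. Slpi, a secreted protease inhibitor, fell from a wild type mean of 52010.0 ± 18131 to a knockout mean of 11911 ± 5042 (log2 -2.16 ± 0.36 SE, adjusted p = 0.0048), and Csf1, the macrophage growth factor, from a wild type mean of 474 ± 81.6 to a knockout mean of 103 ± 13.4 (log2 -2.04, adjusted p = 2.4e-04). Over the mean of its probe sets the Csf1 difference was -1.10 (adjusted p = 0.039). Olr1, a receptor for oxidised lipoprotein, was at 624 ± 135 in Gata6-WT and 161 ± 81.4 in Gata6-KO (log2 -1.93, adjusted p = 0.0046). Pim1, a kinase gene that cytokines induce through STAT factors, as they do Socs3, had 1312, 1831 and 1406 in Gata6-WT and 395, 427 and 409.9 in Gata6-KO (log2 -1.83, adjusted p = 1.0e-04). Clec4e, Junb and Slc7a2 also fell. Sod2, the mitochondrial superoxide dismutase, rose from a wild type mean of 3952 ± 647 to a knockout mean of 6470.4 ± 157 (adjusted p = 0.0073), and Marcksl1 from a wild type mean of 933 ± 179 to a knockout mean of 2581 ± 419.6 (adjusted p = 7.4e-04). Without KO 3 the count was 11, and in the other fits with 1 array left out it was 7 to 9.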

How the data were processed

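Total RNA of 6 pools of sorted peritoneal macrophages was labelled with biotin, per the labels, and hybridised to 1 array each. The deposited values are linear intensities, 1 signal for each of 45101 probe sets; the submitters' processing notes name MAS5 and affy without versions. Once the top and bottom 2% of probe sets were set aside, the mean signal equalled 500 on every array, so the deposited intensities already shared a scale. MAS5 corrects for background, which leaves low signals noisy. Detection calls were not used, and 3 arrays per group limit the precision. No 2 arrays were identical. The labels call the pools biological replicates without naming the mice, so p-values measure the spread between these pools.

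The array annotation gave 1 symbol to 34958 probe sets, several to 932 and none to 9211. Signals became log2(signal + 16), with no further scaling. After removal of 64 control probe sets, the 27022 above the 40th percentile of mean log2 (5.99, a signal of 47.5) entered a two-sided limma 3.58.1 analysis (R 4.3.3; lmFit, then eBayes with trend), with Benjamini-Hochberg adjustment over all of them. Each gene is represented by whichever of its tested probe sets had the highest mean (12511 genes). The procedure was tested on simulated data. Array values are given for genes with a passing probe set, probe sets of both signs or groups that do not overlap, and for up to 4 passing genes of largest change per further list; other list genes named, and Nfkbia, Myd88, Tnf, Cd83, Fos and Dusp1 array values, were chosen after their values were seen. Genes and lists were chosen with earlier results of these data known. Variations covered pseudocounts of 1 and 64, no filter or the 60th percentile, quantile and median scaling, no trend, array weights, a block for the replicate number, a sex-linked term, replicates 2 and 3 alone, each array left out, stricter thresholds (0.01, or 2-fold) and averaging a gene's probe sets. Figures used matplotlib 3.10.9 in Python 3.11.15.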

Additional observations from a re-analysis of the deposited data

How the results depend on the processing

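Of the 44 genes 7 passed, and of their probe sets 14; of the other pathway genes 6 passed. In this order the counts were 2 (Map3k8 and Ikbke), 2 and 0 without a variance trend. Cd40, Tank, Irak1, Ikbkb and Socs3 did not pass in that fit. With replicates 2 and 3 alone the counts were 4 (Map3k8, Ikbke, Socs3 and Il1rn), 8 and 1. Cd40, Tank, Irak1 and Ikbkb did not pass there. At an adjusted p under 0.01 the counts were 3, 3 and 0. With an adjusted p under 0.05 and a 2-fold change the counts were 2, 6 and 1. With single arrays left out the counts ranged from 4 (without KO 2 or WT 2) to 6, from 6 (without KO 2 or KO 3) to 11, and from 1 (without KO 1 or KO 2) to 6. The genes counted include Il1rn without KO 1 and Cd83 without KO 3, which are not among the 7. The induced genes, 9 in all, stayed between 6 and 11 in 20 variations. With a replicate block the counts were 7, 14, 6 and, for induced genes, 10, holding the same 7 of the 44 genes; same-numbered arrays deviated together with correlations of 0.13, 0.07 and 0.07, so the numbers were not taken as pairs. The block changed no call of a probe set named with its test. Over all genes, 702 passed upward and 933 downward, 736 and 904 after quantile normalization, and 807 and 778 after median scaling; the median of all genes moved from -0.04 to -0.03 and 0.02. These 2 scalings of the marker sums and the sums without single arrays were chosen after seeing the data. The log2 ratio of the sums changed sign for NK cell markers under quantile normalization (-0.0563) and eosinophil markers under median scaling (0.0244). With single arrays left out it ranged from -0.24 to 0.0308 for monocyte, -0.12 to 0.26 for NK cell and -0.26 to 0.42 for eosinophil markers. For mesothelial markers it ranged from -0.26 to 0.0556, and for the handling stress genes from -1.07 to 0.11. The cause of these shifts was not tested. Genes with signals near the filter, such as Il10 (26.9 to 96.3 per array), are limited by noise at low intensity. Il6, at 185 to 537, lay above the filter signal of 47.5 in every array.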
